A study of Mus musculus with 7 samples.

Results

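Collagen chain genes encode the alpha chains that assemble into trimeric collagen molecules. They were taken as every mouse gene whose symbol is Col, a number, the letter a and a number. The reference annotation held 44 such genes, and 39 of them had at least 1 named probe, out of 17047 genes named on the array. Col6a3, Col6a5, Col12a1, Col20a1 and Col22a1 had no named probe and are not described. The 39 genes belong to 24 collagen types and were read by 65 probes. On all 7 arrays 28 genes were well above background, 10 were so on some arrays, and Col10a1, the short network chain of growth plate cartilage, on none.

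Collagens are the main fibrous proteins of the extracellular matrix. Types I, III and V form the banded fibrils of the gut wall and lung, type IV forms the network of basement membranes under epithelia and around vessels, and types VII and XVII fasten stratified epithelia to that membrane. Fibril-associated and other short-helix chains sit on fibril surfaces, at the cell membrane or in basement membrane zones. The chains are hydroxylated and folded in the endoplasmic reticulum before secretion.

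The study compared stomach-like tissue grown from mouse embryonic stem cells with mouse organs, using 1 Agilent array of total RNA per group. The day 42 culture had been kept with EGF and FGF10 together with Wnt3a, Noggin and R-spondin1. The day 46 culture had then spent 4 days with Bmp4 and Shh. Which of the earlier factors were withdrawn at that point is not stated in the labels. Adult esophagus, lung, stomach and intestine and the stomach primordium of embryonic day 9.5 (E9.5) came from ICR mice, an outbred stock. The stem cell line, the age of the adults, the region of each organ and the number of animals or cultures behind an array were not given in the labels. All groups are unmodified as far as the labels say, and both culture groups share the culture medium with EGF. The adult organs shared 1 slide of 4 arrays, and each culture and the embryo had its own. Slide and group cannot therefore be told apart in any comparison that involves the cultures or the embryo.

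Each level is a log2 processed signal minus the 75th percentile of its array, so 0 marks that percentile and a difference of 2 is 4-fold. A gene with several probes is given by the probe with the highest mean, unless said otherwise. With 1 array per group there is no replicate, no test was made, and a difference describes these arrays. The spread available is that between probes of the same gene: over all genes its SD ran from 0.48 to 0.93 (log2 difference) across pairs of arrays. That SD was 0.85 to 0.93 between a culture and a tissue, and 0.48 to 0.69 for all other pairs. For collagen genes it was 0.33 between lung and stomach and 1.41 between the day 42 culture and stomach. Levels of different genes come from different probes and are compared here only between arrays.

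The labelled tissues were set against marker lists, as signals summed over a list and divided by the 75th percentile of the array. The gastric epithelial sum was 5020 in adult stomach, 35.3 in the day 42 culture and 225 in the day 46 culture, and Gkn1 was not well above background at day 42. Its genes did not move together between the cultures: Gkn2 was at 0.84 at day 42 and 7.23 at day 46, Tff2 at 3.12 and -4.42 and Pgc at 2.06 and -1.48. The median level of the list was -1.24 at day 42, -1.61 at day 46 and 9.0 in stomach. In the E9.5 stomach that sum was 0.198, with Pgc, Tff2, Gkn1 and Gkn2 all too dim to stand above background. The alveolar and airway sum was 1820 in lung, the intestinal epithelial sum 2690 in intestine, and the basal and squamous epithelial sum 1200 in esophagus and 937 in stomach. The RNA is from whole pieces of tissue or culture, in which fewer cells of a type and less RNA per cell cannot be told apart.

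The 300-base promoter windows (250 bases before to 50 after the annotated start, RefSeq, GRCm38.p6) of pairs of genes that kept their distance over the arrays are shown because these genes moved together. For Col4a1 and Col4a2 the windows are on opposite strands of chromosome 8 and share 78 bases, and their starts lie 21 bases apart. The same 30 bases inside that stretch, chr8:11312800-11312829, are printed for Col4a1 on the minus strand and for Col4a2 on the plus strand. The 250 bases before the start are printed for Col1a2 (chr6:4505368-4505617, plus strand) and Col3a1 (chr1:45311288-45311537, plus strand). Capitals mark 3 short promoter motifs on either strand: the GC box GGGCGG, the CCAAT box and the TATA box, searched as TATAAA. No printed match overlaps another.
Col4a1: cccttggagacgCCGCCCgcgcactgccga
Col4a2: tcggcagtgcgcGGGCGGcgtctccaaggg
Col1a2: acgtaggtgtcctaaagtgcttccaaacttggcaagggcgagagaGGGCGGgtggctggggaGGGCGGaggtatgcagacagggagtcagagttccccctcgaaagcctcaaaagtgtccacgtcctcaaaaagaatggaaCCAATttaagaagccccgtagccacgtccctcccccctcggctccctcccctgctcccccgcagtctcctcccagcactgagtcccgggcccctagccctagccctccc
Col3a1: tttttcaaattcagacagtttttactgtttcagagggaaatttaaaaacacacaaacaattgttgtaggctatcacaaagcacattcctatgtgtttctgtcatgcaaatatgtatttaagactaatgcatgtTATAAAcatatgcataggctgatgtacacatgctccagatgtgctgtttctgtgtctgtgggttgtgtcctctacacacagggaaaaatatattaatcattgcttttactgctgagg

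Windows were found for 32 of the 39 genes, 35 windows in all. GGGCGG (or CCGCCC) occurred in 62.9% of them and in 35.7% of the 32851 windows of that length in the table. CCAAT (or ATTGG) occurred in 37.1% against 37.4%, and TATAAA (or TTTATA) in 14.3% against 13.6%. The median GC content was 60.0% in the collagen windows and 52.7% in all windows. The Col1a2 and Col3a1 stretches, whose genes kept their distance over the arrays, differed in base composition, with a GC content of 62.0% and 35.2%. These are matches of letters in a window and say nothing about which factors bind there.

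Across the 7 arrays, the 38 collagen genes that were well above background somewhere had their highest level most often in the day 46 culture. That was so for 12 of them (31.6%), where 12.2% of all genes peaked on that array. For 9 of the 12 the next array, mostly the day 42 culture, was closer than 0.51, the SD between probes for a difference between the cultures. Esophagus held the peak of 7 (18.4%, against 9.2% of all genes), and the day 42 culture, lung and E9.5 stomach of 5 each (13.2%, against 11.8%, 12.1% and 26.1%). Intestine held 3 (7.9%, against 18.2%) and adult stomach only Col19a1 (2.6%, against 10.4%). These peaks are by the probe used. A further probe was highest in esophagus for Col1a1 and Col3a1, in E9.5 stomach for Col2a1 and Col25a1, and at day 42 for Col5a1. Further probes of Col1a1, Col4a6 and Col15a1 were also highest at day 46. The plot of levels of all genes by array shows the peaks row by row.

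**Figure D1:**
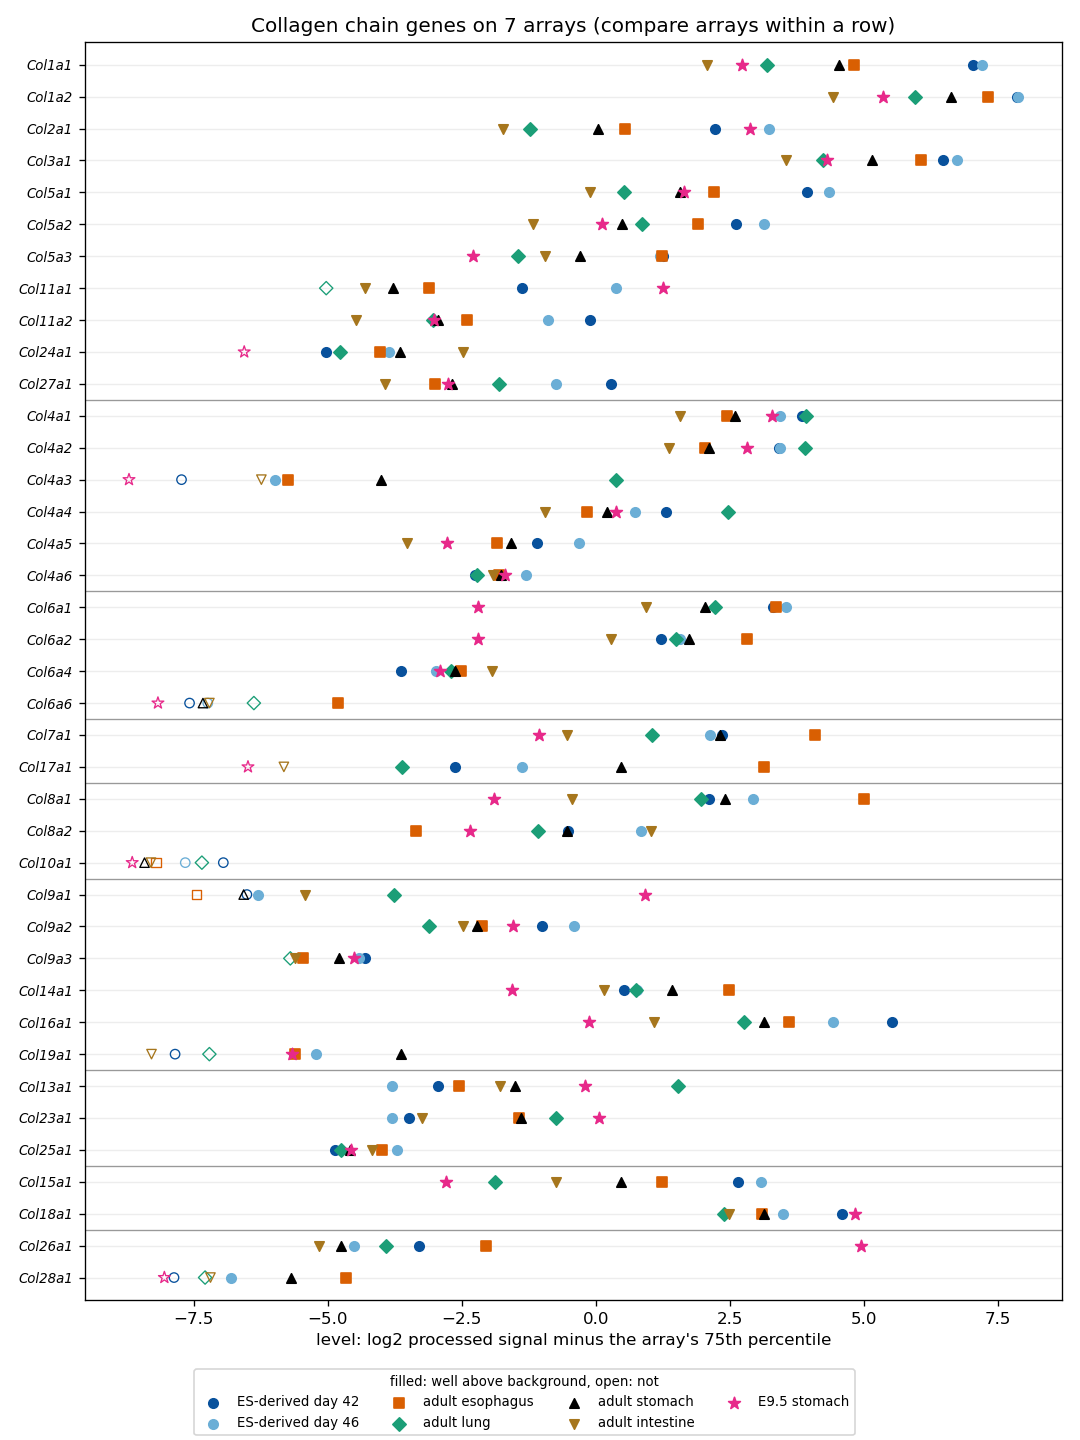
Level (log2 processed signal minus the 75th percentile of the array) of 39 collagen chain genes on 7 arrays, 1 point per array, in blocks by class; open points were not well above background. The 2 culture arrays lie at the right in most rows of the fibril-forming block at the top, and E9.5 stomach stands apart in the rows of Col9a1 and Col26a1.

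Between the cultures, collagen levels differed little. None of the 37 genes compared was at least 4-fold higher at day 46 than at day 42 (1.04% of all genes were) and none at least 4-fold lower (0.764% of all genes). At 2-fold, 5 were higher (13.5%, against 9.0% of all genes): Col11a1 by 1.76, Col8a2 by 1.37, Col17a1 by 1.25, Col24a1 by 1.19 and Col25a1 by 1.15. At 2-fold, 4 were lower (10.8%, against 6.47%): Col26a1 with a difference of -1.22, Col18a1 of -1.1, Col16a1 of -1.09 and Col27a1 of -1.03. The median difference was 0.24, beside 0.0 over all genes, and it became -0.05 when arrays were centred on their medians, which moves all genes by -0.39.

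The cultures were set against adult stomach, the organ they were grown to resemble. At day 42, 9 of 36 genes were at least 4-fold higher (25.0%, against 7.38% of all genes) and 2 at least 4-fold lower (5.6%, against 10.3%). At day 46, 7 of 37 were higher (18.9%, against 6.85%) and 2 lower (5.4%, against 9.89%). The higher ones were mostly chains that form fibrils, described below, and the lower ones were Col17a1 and Col23a1 at day 42 and Col13a1 and Col23a1 at day 46. The median difference was 1.15 at day 42 and 0.85 at day 46, beside 0.0 over all genes in both.

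These counts rested on the choice of probe. For day 42 against stomach, 14 of the 16 further probes of collagen genes gave a lower difference than the probe used, with a median of 0.16 against 1.87 for the probe used. With the mean over the probes of a gene, 3 genes were higher and 5 lower at day 42, and 3 were higher at day 46. Of the 12 compared genes that have 1 probe, 1 was at least 4-fold higher at day 42, with a median difference of 0.8. With the arrays centred on their medians, 10 were higher and 1 lower at day 42.

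**Figure D2:**
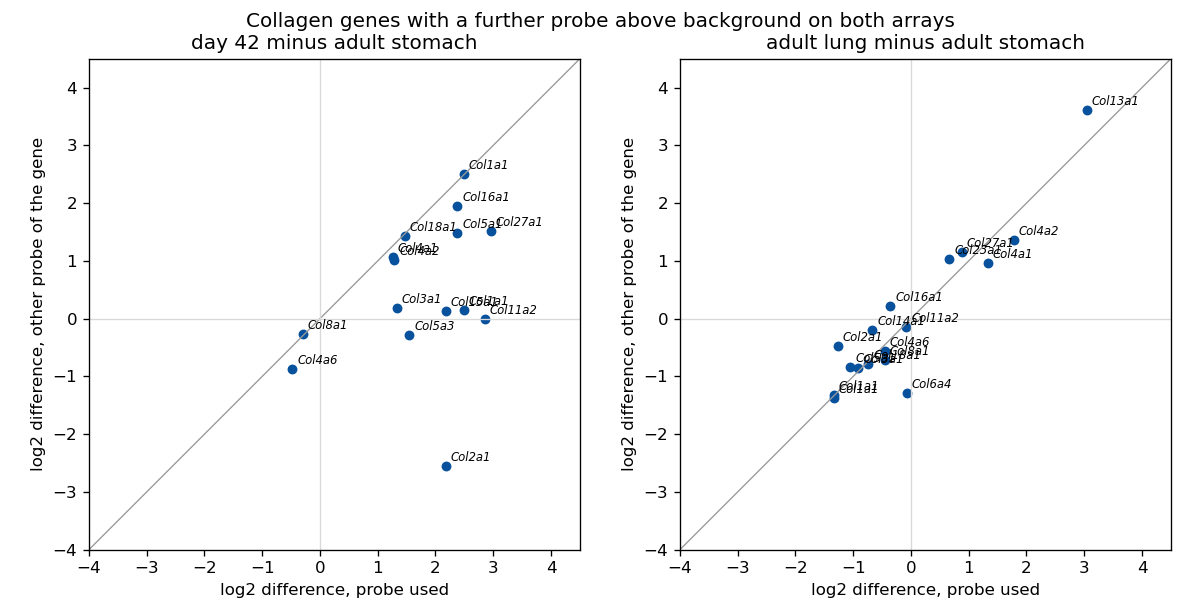
Log2 difference of each further probe (vertical) against that of the probe used (horizontal) for collagen genes with both above background on both arrays; the diagonal marks equal values. For day 42 minus adult stomach 14 of 16 further probes gave a lower difference than the probe used, with Col2a1 at 2.18 and -2.55. One of the 14, Col6a4 at -0.99 and -4.69, lies below the plotted range. For lung minus stomach 16 of 17 further probes have the sign of the probe used.

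Against the E9.5 stomach the cultures had many higher collagen genes. At day 42, 16 of 35 were at least 4-fold higher (45.7%, against 17.0% of all genes) and 5 at least 4-fold lower (14.3%, against 11.5%). At day 46, 18 of 37 were higher (48.6%, against 16.1%) and 4 lower (10.8%, against 11.6%). The medians were 1.69 and 2.0, beside -0.03 and 0.04 over all genes. With normexp background correction the day 46 median was 0.89. Among the genes with 1 probe, 5 of 12 were higher at day 42 and 7 of 13 at day 46. In each, 2 were lower. The further probes had a median of 0.92 at day 42, against 2.24 for the probe used, and of 0.68 against 1.3 at day 46. Of 14 such probes at day 42, 3 were at least 4-fold higher and 1 lower. At day 46 it was 2 and 5 of 18. With the mean over probes, 11 genes were higher and 6 lower at day 42, and 13 and 4 at day 46. Col24a1 counts as higher at day 46 by a bound, and its second probe gave -2.41. Col14a1 counts as higher at day 42 and day 46, while its second probe was not well above background in the cultures or the embryo.

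The E9.5 stomach differed from adult stomach in both directions. Of 37 genes, 4 were at least 4-fold higher in the embryo (10.8%, against 11.5% of all genes): Col26a1, Col9a1, Col11a1 and Col2a1. Another 11 were at least 4-fold lower (29.7%, against 18.1%), led by Col17a1, Col8a1, Col6a1 and Col6a2. Col24a1 was among them as a bound, while its second probe gave 0.13. The higher ones made up 26.7% of the called genes, and 40.0% when arrays were centred on their medians, which moves all genes by 0.54. The median difference, -0.37 beside -0.03 over all genes, then became 0.2.

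Among the adult organs, which share a slide, each was set against stomach. In lung 4 of 36 genes were at least 4-fold higher (11.1%, against 8.83% of all genes) and 2 at least 4-fold lower (5.6%, against 8.97%). In esophagus 3 of 37 were higher (8.1%, against 5.3%) and 1 lower (2.7%, against 6.31%); the higher ones made up 75.0% of the called genes, 60.0% with median centring or quantile normalization and 100.0% with normexp background correction. In intestine none of 37 was at least 4-fold higher (7.94% of all genes were) and 8 were at least 4-fold lower (21.6%, against 7.02%). The median differences from stomach were -0.42 in lung, 0.5 in esophagus and -1.22 in intestine, beside -0.14, -0.07 and -0.08 over all genes. The 9 comparisons share arrays, above all that of stomach, so their counts are not independent of each other.

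At the looser threshold of 2-fold, more of the collagen genes differed between the cultures and stomach than of all genes, and in the higher direction. At day 42, 19 of 36 were at least 2-fold higher than in stomach (52.8%, against 20.1% of all genes) and 6 lower (16.7%, against 22.6%). At day 46, 17 of 37 were higher (45.9%, against 19.3%) and 6 lower (16.2%, against 22.1%). Against E9.5 stomach, 19 of 35 were higher at day 42 (54.3%, against 28.1%) and 5 lower (14.3%, against 25.9%), and at day 46 it was 20 of 37 (54.1%, against 28.7%) and 5 (13.5%, against 26.4%). In E9.5 against adult stomach 7 of 37 were higher (18.9%, against 27.3%) and 16 lower (43.2%, against 29.7%). Among the adult organs, intestine stood lowest, with 22 of 37 at least 2-fold below stomach (59.5%, against 19.2%) and 2 above (5.4%, against 17.9%). In lung 6 of 36 were above (16.7%, against 18.0%) and 10 below (27.8%, against 21.8%), and in esophagus 11 of 37 above (29.7%, against 14.0%) and 4 below (10.8%, against 15.6%).

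**Figure D3:**
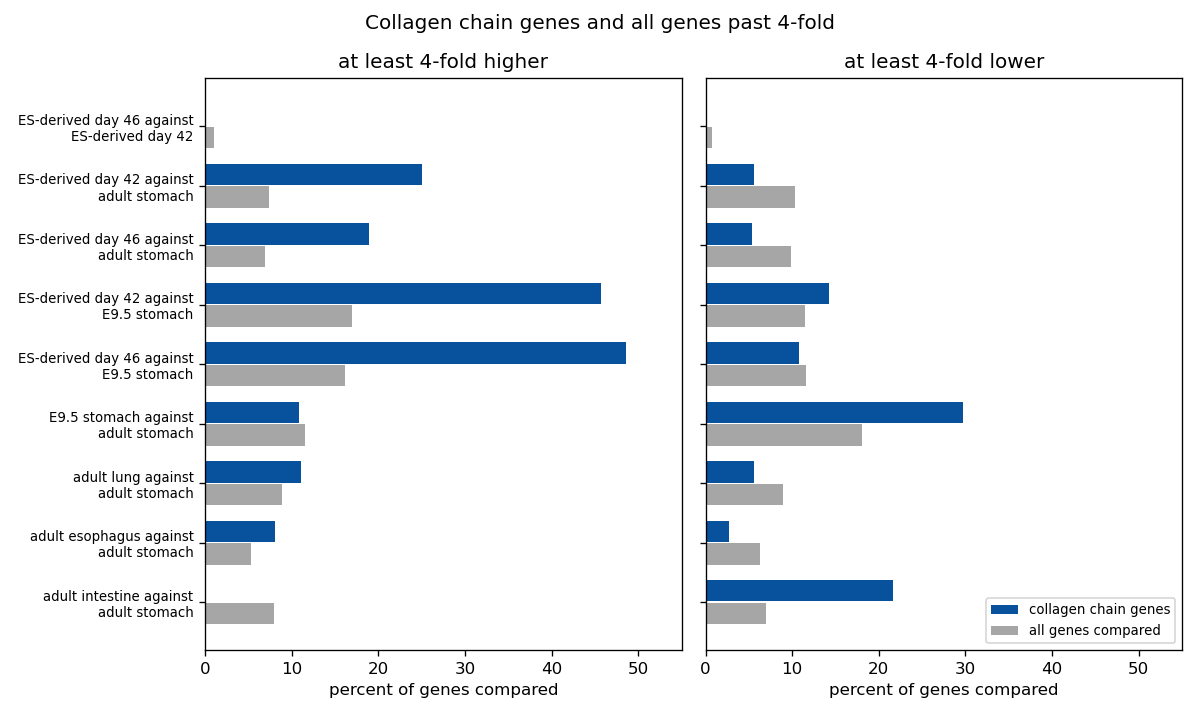
Percent of collagen chain genes (blue) and of all genes compared (grey) that were at least 4-fold higher (left) or lower (right) in each of 9 comparisons of 1 array with 1 array. The collagen share was above that of all genes among genes higher in the cultures than in stomach (25.0% and 18.9%) or E9.5 stomach (45.7% and 48.6%) and among genes lower in intestine than in stomach (21.6%).

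The chains of type I collagen, the main fibril of connective tissue, were highest in the cultures by the probes used and lowest in intestine. Col1a1, its alpha-1 chain, had levels of 7.03 at day 42 and 7.20 at day 46, then 4.81 in esophagus, 4.54 in stomach, 3.20 in lung, 2.73 in E9.5 stomach and 2.07 in intestine. It was higher than in stomach by 2.49 at day 42 and 2.66 at day 46. Its 3 probes did not give the same difference: the other two gave 2.50 and 0.15 at day 42, and 3.02 and -0.19 at day 46. In intestine all 3 were lower than in stomach, by differences of -2.47, -2.40 and -2.08. Col1a2, the alpha-2 chain, had levels of 7.86 and 7.87 in the cultures, 7.31 in esophagus, 6.62 in stomach, 5.96 in lung, 5.35 in E9.5 stomach and 4.42 in intestine, in the same order of arrays. The gap between both chains varied over the arrays with an SD of 0.86.

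Col3a1, the only chain of type III collagen, which forms fine fibrils in distensible organs, followed Col1a2. Its levels were 6.48 and 6.74 in the cultures, 6.06 in esophagus, 5.15 in stomach, 4.32 in E9.5 stomach, 4.24 in lung and 3.55 in intestine. The distance between Col1a2 and Col3a1 had an SD of 0.29 over the arrays, the third smallest of 378 pairs formed by the 28 genes above background everywhere, whose median was 1.7. The second probe of Col3a1 differed from the first by an SD of 0.76, so this closeness holds for the probes used. That probe was highest in esophagus at -0.06. Its differences from stomach were 0.18 at day 42 and -0.18 at day 46, where the probe used gave 1.33 and 1.59.

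Of the type V chains, which start fibrils and limit their width, Col5a1 and Col5a2 were also highest in the cultures. Col5a1 stood at 3.95 and 4.35 in the cultures, at 2.21 in esophagus, 1.65 in E9.5 stomach, 1.57 in stomach, 0.52 in lung and -0.11 in intestine. Its difference from stomach was 2.38 at day 42, where its second probe gave 1.48, and 2.78 at day 46, where that probe gave 0.61. Col5a2, read by 1 probe, stood at 2.61 and 3.14 in the cultures, 1.91 in esophagus, 0.87 in lung, 0.48 in stomach, 0.11 in E9.5 stomach and -1.17 in intestine. Its differences from stomach were 2.13 and 2.66. Col5a3, a chain of fewer tissues, was at 1.26 and 1.19 in the cultures and at 1.24 in esophagus, and lower elsewhere: -0.30 in stomach, -0.95 in intestine, -1.45 in lung and -2.29 in E9.5 stomach. Its second probe was highest in esophagus at -4.25 and put the cultures below stomach, with differences of -0.28 at day 42 and -0.15 at day 46, where the probe used gave 1.55 and 1.49.

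The chains of cartilage fibrils were split between the embryo and the cultures. Col2a1, the chain of type II collagen of cartilage and notochord, was at 2.87 in E9.5 stomach and 0.05 in adult stomach, a difference of 2.82 that its second probe gave as 3.36. In the cultures its probes disagreed. The probe used stood at 2.23 and 3.23, and the other at -3.09 and -1.49, so the difference from stomach at day 42 was 2.18 or -2.55 (mean over probes, -0.18), and no direction is given for the cultures, although the probe used counts it among the higher genes above. Col11a1, the type XI chain that seeds those fibrils, was highest in E9.5 stomach at 1.25, followed by day 46 at 0.38 and day 42 at -1.38. In esophagus it was at -3.11, in stomach at -3.78 and in intestine at -4.30, and in lung it was not well above background. Its differences from stomach were 5.02 in the embryo, 4.16 at day 46 and 2.40 at day 42. The second probe of Col11a1 was also highest in E9.5 stomach, at -2.59, then at -4.79 at day 46 and -5.68 in esophagus. It was not well above background at day 42, in stomach, lung or intestine, and so gave no difference from stomach at day 42.

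Col11a2, the other type XI chain measured, was high in the cultures and not in the embryo by the probe used: -0.10 and -0.89 in the cultures, -2.41 in esophagus and between -2.95 and -4.47 on the others. Its second probe lay between -4.63 and -4.04 on all 7 arrays. Col27a1, a later described fibril-forming chain, was at 0.28 and -0.75 in the cultures, -1.81 in lung, -2.68 in stomach, -2.75 in E9.5 stomach, -3.0 in esophagus and -3.93 in intestine. Its difference from stomach at day 42 was 2.96, and 1.51 by its second probe. The probes of Col24a1, a further fibril-forming chain, disagreed. The probe used was highest in intestine at -2.47 and not well above background in E9.5 stomach, while the other was highest in esophagus at -3.71, at -4.15 in E9.5 stomach and not well above background in intestine.

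Of the 11 fibril-forming chains, 7 were at least 4-fold higher than stomach at day 42 and 6 at day 46, and none was lower at either (7.38% and 6.85% of all genes were higher). These counts use 1 probe per gene and include Col2a1, whose probes disagree in direction, and Col11a2, whose second probe gave -0.01 at day 42 and 0.16 at day 46. The class median was 2.18 at day 42 and 2.06 at day 46. The fibroblast and mesenchyme marker list, of which all 11 genes were above background in both cultures, had summed signals of 467 and 311 there. Those sums were 481 in esophagus, 194 in intestine, 121 in stomach, 101 in lung and 72.5 in E9.5 stomach. The sums are dominated by the brightest genes, such as Dcn at 8.21 at day 42, and the median levels of the list order the arrays differently. Those medians were 2.34 and 2.32 in the cultures, 3.36 in esophagus, 2.49 in lung, 1.78 in E9.5 stomach, 1.16 in intestine and 0.42 in stomach. Both measures were higher in the cultures than in stomach, and their part in these differences was not tested. Markers of bone, whose cells also secrete type I collagen, summed to 237 and 179 in the cultures and to 18.8 in stomach. Most of that was Spp1, at 7.88 and 7.46 in the cultures and 3.68 in stomach. Runx2, the bone lineage factor, was at -0.36 and -0.38 in the cultures and -4.14 in stomach, and Alpl, a phosphatase of bone, at -1.58, 1.03 and -2.12. Bglap, or osteocalcin, went the other way, at -2.71, -2.32 and 2.48. Sp7 and Ibsp were not well above background at day 42 and were so at day 46, at -4.2 and -7.04. Of the 6 bone markers, 3 were at least 4-fold higher and 1 lower at day 46 than in stomach. Their part in the collagen levels was not tested.

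Some of the genes that fold and modify collagen chains in the endoplasmic reticulum were higher in the cultures than in stomach. Of the 21 listed, 20 could be compared at day 42, and 8 were at least 4-fold higher (7.38% of all genes were) with none lower. At day 46 it was 8 of 21 (6.85% of all genes) with none lower. Other members were below stomach by less, such as Mia3, a factor of collagen export, at 3.32 and 3.11 in the cultures and 4.13 in stomach. P4ha1, a catalytic subunit of prolyl 4-hydroxylase, was at 3.90 at day 42, 3.64 at day 46 and -1.65 in stomach. P4ha2, another such subunit, was at 6.17, 6.21 and 2.03. P3h1, a prolyl 3-hydroxylase, was at 0.63, 0.71 and -3.86, and Plod2, a lysyl hydroxylase, at 3.31, 3.30 and -0.35. The list median was 1.78 at day 42 and 1.42 at day 46, beside 0.0 over all genes.

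Between the cultures the folding list had a median of -0.25, and 1 of 21 genes passed 2-fold: Ppib, a proline isomerase of collagen folding, lower at day 46 by a difference of -1.12. The collagen receptors had a median of 1.02 at day 46 against day 42, and 4 of 7 were at least 2-fold higher (9.0% of all genes were). These were Ddr2 (1.46), Mrc2 (1.21), Itga1 (1.1) and Itga2 (1.02), which are a receptor tyrosine kinase, an uptake receptor and integrin chains. The same median over all genes was 0.0. Centring the arrays on their medians moves all genes of this comparison by -0.39, which would put Mrc2, Itga1 and Itga2 below 2-fold.

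Of the 8 genes that cut or help to cut procollagen outside the cell, 5 could be compared between day 42 and stomach, with 1 at least 4-fold higher and 1 lower (7.38% and 10.3% of all genes). Bmp1, the procollagen C-proteinase, was at 3.13 at day 42, 2.48 at day 46 and 0.75 in stomach. Pcolce2, an enhancer of that enzyme, was at -5.0, -3.33 and -0.42, and so was lower in the cultures. Adamts2, the procollagen N-proteinase, was at 4.74 and 4.92 in the cultures, 2.86 in stomach and -3.64 in E9.5 stomach. Of the enzymes listed it had the largest difference between embryo and adult stomach, -6.50.

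Chains that decorate fibrils (fibril-associated collagens) had no common order. Col16a1, found near basement membranes and in smooth muscle layers, was highest at day 42 at 5.52, then at 4.42 at day 46, 3.61 in esophagus, 3.14 in stomach, 2.77 in lung, 1.08 in intestine and -0.12 in E9.5 stomach. At day 46 it was lower than at day 42 by a difference of -1.09, and of -2.05 by its second probe. That probe was also highest at day 42, at -2.13, but was lower at day 46 (-4.17) than in esophagus (-2.89), lung (-3.86) and stomach (-4.07). Col14a1, a chain of dense connective tissue, was highest in esophagus at 2.48, then at 1.42 in stomach, 0.76 and 0.52 in the cultures at day 46 and day 42, 0.75 in lung, 0.15 in intestine and -1.56 in E9.5 stomach. By the probes used, Col16a1 and Col14a1 were lower in the embryo than in every other group measured. The second probe of Col14a1 was well above background only in the adult organs. It was at -2.56 in esophagus, -4.09 in stomach, -4.26 in intestine and -4.29 in lung.

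Col9a1, a type IX chain of cartilage and of the eye, was highest in the embryo. It was at 0.92 in E9.5 stomach, -3.77 in lung, -5.42 in intestine and -6.31 at day 46, and not well above background in the day 42 culture, esophagus and stomach. Against adult stomach it was at least 148-fold higher in the embryo, and against day 42 at least 89.8-fold. It is read by 1 probe. Its partner chains did not share this pattern: Col9a2 was highest at day 46 at -0.40 and at -1.55 in E9.5 stomach, and Col9a3 ranged from -5.62 to -4.30 where it was above background. Col19a1, a chain of muscle and of nerve terminals, was highest in stomach at -3.64 by the probe used and was above background on 4 arrays. Another of its probes was also highest in stomach, at -5.38, and a further probe was well above background only in esophagus, at -4.3.

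The cartilage and notochord markers were read beside Col2a1, Col9a1 and Col11a1. Their summed signal was 6.55 in E9.5 stomach, 5.04 and 2.85 in the cultures, and 0.447 to 2.64 in the adult organs. Of 10 genes, 8 were above background in the embryo, 8 at day 46 and 4 at day 42. Sox9, at 1.85 in the embryo, 2.19 at day 42 and 1.25 at day 46, made up most of the sum on those arrays. Hapln1, a link protein of cartilage and embryonic matrix, was at 0.98 in E9.5 stomach and -5.14 in adult stomach. Acan, the main cartilage proteoglycan, was at -3.45 and -3.31, and Sox9, an activator of Col2a1, at 1.85 and 0.76. Matn1 and Cnmd were not well above background in the embryo. The part of these cells in the levels of the 3 collagen genes was not tested.

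Genes for proteins that bind fibrils were mostly lower in the embryo. Of 16 listed, 8 were at least 4-fold lower in E9.5 than in adult stomach (18.1% of all genes were) and none higher, with a median of -1.98 beside -0.03 over all genes. Ogn, a small proteoglycan, was at -5.64 in the embryo and 4.44 in stomach. Prelp, another, was at -5.30 and 3.68, and Dcn, which coats type I fibrils, at 1.02 and 6.42. Against the embryo, 13 of 15 were at least 4-fold higher at day 42 (17.0% of all genes were) and 13 of 15 at day 46 (16.1%). Dcn and Lum are also in the fibroblast marker list, so both lists share those genes.

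Of the type IV chains, which build basement membranes, 4 of 6 were highest in lung by the probe used. For Col4a1 the lead over day 42 was 0.07, and its second probe was higher in the cultures (2.96 and 2.91) than in lung (2.87). Col4a1 was at 3.92 in lung, 3.84 and 3.43 in the cultures, 3.28 in E9.5 stomach, 2.59 in stomach, 2.45 in esophagus and 1.57 in intestine. Col4a2, its partner in the common trimer, was at 3.90 in lung, 3.41 and 3.43 in the cultures, 2.82 in E9.5 stomach, 2.12 in stomach, 2.03 in esophagus and 1.37 in intestine. The distance between them had an SD of 0.21 over the 7 arrays, the smallest of the 378 pairs. Their second probes kept within an SD of 0.27 (Col4a1) and 0.14 (Col4a2) of the first, where the median for 12 such pairs of probes of the same collagen gene was 0.89. The pairs described were picked after the values had been seen, among chains of the same type or of types I and III. Col1a2 and Col3a1 are thus not chains of the same trimer. These are the genes whose promoter windows overlap (shown above).

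The minor chains differed more. Col4a3, of lung and kidney basement membranes, was at 0.37 in lung and -4.0 in stomach, a difference of 4.37. In esophagus it was at -5.74 and at day 46 at -5.98, and in the day 42 culture, intestine and the embryo it was not well above background. Col4a4, its partner, was at 2.46 in lung, 1.31 and 0.73 in the cultures, 0.37 in E9.5 stomach, 0.20 in stomach, -0.17 in esophagus and -0.95 in intestine. Both chains were thus highest in lung, but Col4a4 was measured everywhere and Col4a3 was near background outside lung and stomach. The lung difference from stomach was 2.26 for Col4a4.

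Col4a5 and Col4a6 are neighbours on the X chromosome. Col4a5 ran from -3.52 in intestine to -0.32 at day 46, with no value in lung, where its spot was an outlier. By the probe used Col4a6 ran from -2.25 at day 42 to -1.31 at day 46, and its distance from Col25a1 had an SD of 0.26, the second smallest of the 378 pairs. Its other probe was also highest at day 46, at -2.35, and was not well above background in intestine.

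**Figure D4:**
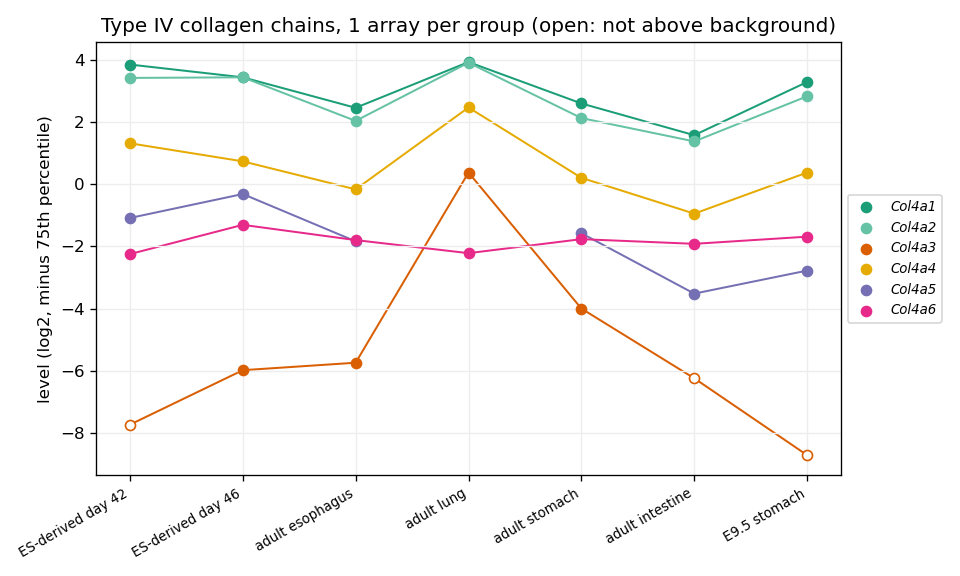
Level (log2 processed signal minus the 75th percentile of the array) of the 6 type IV chain genes on 7 arrays; lines join the points of a gene and open points were not well above background. Col4a1 and Col4a2 keep their distance (SD 0.21), and Col4a3 is at 0.37 in lung and at or below -4.0 elsewhere; Col4a5 has no value in lung.

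Endothelial markers, from cells that lie on type IV collagen, summed to 133 in lung, 19.6 in esophagus, 19.4 in E9.5 stomach, 7.65 in stomach, 2.78 in intestine, and 0.583 and 0.514 in the cultures, where Pecam1 and Tie1 were not well above background at day 42. Col4a1 was at 3.84 and 3.43 in the cultures and 3.92 in lung, and Col4a2 at 3.41, 3.43 and 3.90. Alveolar and airway markers summed to 1820 in lung and 8.62 in stomach. The part of either marker group in the lung differences or in the culture levels was not tested. Of the 15 basement membrane partners listed, 12 had a probe, and 4 at day 42 and 5 at day 46 were at least 4-fold higher than in stomach (7.38% and 6.85% of all genes were), with none lower. Lama5, a laminin chain, was at 4.13 and 3.48 in the cultures and 0.70 in stomach, and Nid2, a nidogen, at 0.45, 0.26 and -2.10. In lung none of the 11 compared was at least 4-fold higher than in stomach (8.83% of all genes were).

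The chains of type VI collagen, a beaded filament around cells, were scarce in the embryo. Col6a1 was at 3.54 at day 46, 3.36 in esophagus, 3.30 at day 42, 2.23 in lung and 2.04 in stomach. In intestine it was at 0.93 and in E9.5 stomach at -2.19. Col6a2, with which it assembles, was at 2.82 in esophagus, 1.74 in stomach, 1.57 and 1.22 in the cultures at day 46 and day 42, 1.5 in lung, 0.29 in intestine and -2.20 in E9.5 stomach. The embryo lay below every other array for both, by differences of -4.23 and -3.94 from adult stomach. Each is read by 1 probe. Col6a6 was above background only in esophagus at -4.81. The probes of Col6a4 gave different patterns, from -3.63 to -1.93 by the probe used and from -5.12 to 0.04 by the other.

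The chains that anchor stratified epithelium were highest in esophagus. Col7a1, the anchoring fibril chain, was at 4.09 in esophagus, 2.35 and 2.13 in the cultures, 2.31 in stomach, 1.05 in lung, -0.53 in intestine and -1.06 in E9.5 stomach. Col17a1, a transmembrane collagen of hemidesmosomes, was at 3.14 in esophagus and 0.47 in stomach, a difference of 2.68 that its second probe gave as 2.88. It was at -1.37 and -2.62 at day 46 and day 42 and at -3.61 in lung. In intestine and E9.5 stomach it was not well above background, and so was at least 78.1-fold and 118-fold lower there than in stomach. The cultures therefore had Col7a1 near its stomach level and Col17a1 below it, by -3.09 at day 42 and -1.84 at day 46.

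The summed signal of the basal and squamous epithelial markers was highest on the arrays where Col17a1 was highest. Their sum was 1200 in esophagus, 937 in stomach, 29.7 and 29.5 in the cultures, 26.1 in intestine, 3.33 in lung and 1.97 in E9.5 stomach. Krt5, a basal keratin, was at 7.94 in esophagus, 6.31 in stomach, 0.55 at day 42 and 2.45 at day 46. Trp63, the basal cell factor, was at 2.19, 1.38, -4.90 and -3.66 in the same order, and was not well above background in lung and intestine. Most of the stomach sum was Lor, at 9.59. Itgb4, the hemidesmosomal integrin chain, was at 4.66 in esophagus, 3.87 in stomach, 4.66 and 4.09 in the cultures and 4.66 in intestine. It made up most of the intestine sum, while Col17a1 was not well above background there. The part of these cells in the Col17a1 and Col7a1 levels was not tested.

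The short-chain collagens of type VIII differed from stomach in opposite directions in esophagus and intestine, and in the same direction in lung, at day 46 and in the embryo. Col8a1 was at 5.00 in esophagus, 2.94 and 2.12 at day 46 and day 42, 2.42 in stomach, 1.97 in lung, -0.44 in intestine and -1.90 in E9.5 stomach. Its esophagus difference from stomach was 2.58, and 2.36 by its second probe. Col8a2 was at 1.03 in intestine, 0.85 and -0.52 at day 46 and day 42, -0.54 in stomach, -1.07 in lung, -2.35 in E9.5 stomach and -3.36 in esophagus. The distance between both chains had an SD of 3.02, ranking 340 of 378 pairs, although they can occur in the same network.

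Of the 3 transmembrane chains, by the probes used, Col13a1 and Col23a1 were lowest in the cultures and Col25a1 was highest at day 46. Col13a1, a chain of cell adhesion sites, was highest in lung at 1.54, then at -0.21 in E9.5 stomach, -1.50 in stomach, -1.79 in intestine, -2.55 in esophagus, -2.95 at day 42 and -3.81 at day 46. The lung difference from stomach was 3.04, and 3.61 by its second probe. Col23a1, a related chain, was highest in E9.5 stomach at 0.06, then at -0.74 in lung, -1.40 in stomach, -1.43 in esophagus, -3.24 in intestine, -3.48 at day 42 and -3.81 at day 46. Both genes had their lowest level at day 46. The differences of Col23a1 from stomach were -2.08 at day 42 and -2.41 at day 46, where its second probe gave -2.55. Col25a1, a neuronal chain, ranged from -4.86 at day 42 to -3.71 at day 46, where it was 0.89 above stomach. Its second probe was well above background only in E9.5 stomach, at -5.23.

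The multiplexins, basement membrane zone collagens with a cleavable end, had different orders. Col15a1 was at 3.08 and 2.65 in the cultures at day 46 and day 42, 1.24 in esophagus, 0.47 in stomach, -0.75 in intestine, -1.88 in lung and -2.80 in E9.5 stomach. Its difference from stomach was 2.18 at day 42, where its second probe gave 0.14. Col18a1, the source of endostatin, was highest in E9.5 stomach at 4.84 and at day 42 at 4.60, then at 3.50 at day 46, 3.13 in stomach, 3.11 in esophagus, 2.49 in intestine and 2.39 in lung. Its difference between day 46 and day 42 was -1.1, and -1.31 by its second probe.

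The widest range among the collagen genes was that of Col26a1, a short collagen first known from developing reproductive organs. It was at 4.94 in E9.5 stomach, and at -2.05 in esophagus, -3.29 at day 42, -3.91 in lung, -4.51 at day 46, -4.75 in stomach and -5.17 in intestine. The embryo thus exceeded the next array by 6.99 and adult stomach by 9.70. It is read by 1 probe, which was well above background on all 7 arrays. Neural tube markers summed to 15.2 in E9.5 stomach and 0.84 to 7.62 elsewhere. Nes, at 3.68 in E9.5 stomach and 2.88 in lung, made up most of the sum on those arrays. The median level of that list was -1.4 in E9.5 stomach and -5.24 to -3.89 elsewhere. Peripheral glia and neuron markers summed to 10.4 in E9.5 stomach and 1.16 to 5.39 elsewhere. The part of both marker lists in the Col26a1 level was not tested. Col28a1, a chain of peripheral nerve sheaths, was highest in esophagus at -4.66 and was above background on 3 arrays.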

How the data were processed

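Total RNA of 7 samples had been hybridised to Agilent mouse arrays, 1 per group (1 colour, Cy3), and scanned with Feature Extraction (10.7.3.1 for the cultures and 10.5.1.1 for the other arrays, per the file headers; 10.5 per the submitters' processing notes). The deposited scanner files give spot intensity: the processed signal, background-subtracted by the authors' software, and median signal and background. The authors' deposited value table holds log2 values after a shift to the 75th percentile, per the labels; its column medians ran from -3.43 to -2.68 and its correlation with the values computed here from 0.9991 to 1.0.

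Control spots and the 40 to 728 outlier spots per array were left out, spots of a probe were averaged, and log2 processed signals were shifted by the 75th percentile of each array. No spot was saturated. Gene names came from RefSeq (GRCm38.p6): 24375 of 41174 probes matched on accession, a further 57 on symbol, and 16742 had no name. A probe was taken as well above background if at least 0.5 of its spots carried that flag. A gene not so on an array was bounded by the lowest such signal there, or its own signal if higher, giving "at least N-fold", and left out where neither array measured it. Spots of a replicated probe varied within an array by a median SD of 0.065 to 0.097 (log2).

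Members, lists and thresholds were chosen with earlier results of these data known. Any collagen gene could be named, at most 4 genes of another list per comparison (those with the largest difference), and any marker. The counting was tested on simulated data. Python 3.11.15, pandas 2.3.3, numpy 2.4.6 and limma 3.58.1 (normexp, offset 50, as an alternative) were used.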

Additional observations from a re-analysis of the deposited data

How the results depend on the processing

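Of 144 counts recomputed under 8 alternatives, 118 stayed within 1.5 times the count given, and 26 did not. Of 63 medians 60 were counted as the same, 1 as moved and 2 as reversed. Some medians shrank without being counted as reversed. Esophagus against stomach was 0.5, and 0.02 with normexp. E9.5 against adult stomach was -0.37, and -0.04 with quantile normalization. Day 42 against stomach was 1.15, and 0.56 with the mean over probes. Of 660 values of single genes 598 stayed, 61 moved and 1 changed sign: Col2a1 at day 42 against stomach was -0.18 with the mean over probes. The median of day 46 against day 42 was -0.05, and that of E9.5 against adult stomach 0.2, with median centring.

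With a 2-fold threshold the counts of higher and lower genes were 5 and 4 for day 46 against day 42. They were 19 and 6 for day 42, 17 and 6 for day 46, 11 and 4 for esophagus and 2 and 22 for intestine, each against stomach. For E9.5 against stomach 7 were higher and for lung 10 were lower. With the mean over probes, 1 gene was higher at day 46 than at day 42 and 3 were higher at day 42 and 3 at day 46 than in stomach, with 5 lower at day 42. With no filter 1 was higher at day 46 than at day 42 and 5 were lower at day 42 than in stomach. Lower genes at day 42 against stomach were 1 with median centring, 1 with quantile normalization and 1 with normexp. For esophagus they were 2 with median centring, 2 with quantile normalization and 0 with normexp. In intestine they were 5 with normexp and 5 with genes above background on both arrays. The cause of these changes was not tested.

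No paired analysis was possible because each group has 1 array. Precision is limited by the single array per group, by probes that disagree, and by background: members well above it numbered 32 to 37 per array.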
